A study of Homo sapiens with 8 samples.

Results

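Messages of histone genes were followed in SH-SY5Y, a long-established line of human neuroblastoma cells that resemble sympathetic neuroblasts, on 8 Affymetrix arrays. In 4 arrays the cells were stably transfected with RNAi against DJ-1, the protein encoded by PARK7 (clones B and G), and in the other 4 with a scramble control (clones H and M). Each clone was measured in duplicate, as replicate 1 and replicate 2, so each condition rests on 2 clones. The labels give no age of culture, cell density or separate batch for the replicate numbers, and do not say that duplicates were separate cultures, so p-values reflect only how far these arrays scatter, and that scatter may be technical. The members were all 57 probe sets that the array annotation maps to exactly 1 gene with a histone symbol, out of 22215 probe sets tested. They stand for 48 histone genes of 11963 genes on the array. A further 28 probe sets name several genes at once, at least 1 of them a histone, and were left out. The probe sets were chosen by gene symbol alone, but the histone genes as a group were selected on the replicate and knockdown differences of these same arrays. Its values in both comparisons are therefore a description.

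Histones are the proteins around which DNA is wrapped: 2 copies each of H2A, H2B, H3 and H4 form the nucleosome core, and linker histone H1 binds where DNA enters and leaves it. Most core and H1 genes lie in clusters and are transcribed mainly in S phase, when new DNA needs packaging. Their messages usually end in a stem-loop bound by the protein SLBP in place of a poly(A) tail. Some cluster genes also make polyadenylated messages, which are known to accumulate in cells that leave the cell cycle or differentiate. Replacement variants such as H2A.Z, H2A.X, H3.3 and macroH2A are encoded by single genes outside the clusters, and most are read into polyadenylated messages throughout the cell cycle. The labelling used here, per the labels the manufacturer's one-cycle protocol, primes cDNA on poly(A) tails. A signal for a cluster gene is thus weighted towards its polyadenylated form, and the arrays cannot give the total level of a histone message.

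The members comprised 36 probe sets of core histone cluster genes (8 for H2A, 13 for H2B, 7 for H3 and 8 for H4), counting with them H2BC12L, a lone H2B gene on chromosome 21, 7 of linker H1 genes and 14 of replacement variants. Cluster genes have near-identical paralogs, and 23 of the 57 probe sets carry the manufacturer's suffix for shared sequence, so the named gene of such a probe set is uncertain. Signals are log2 values, on which a difference of 1 is a doubling. The median of all probe-set means was 8.06, and 26 of the 57 histone probe sets lay at or above it. Signals of different probe sets are not compared, since each has its own probes.

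The array medians lay between 8.03 and 8.08. PARK7 averaged 10.18 ± 0.18 in knockdown and 13.08 ± 0.09 in control arrays (SD, n = 4 each), and no knockdown array overlapped a control array. Of 13 measured sympathetic neuroblast markers 12 lay at or above the median signal, against 0 of 9 leukocyte and epithelial markers. The 15 mesenchymal neuroblastoma markers had an array median of 7.62 to 8.88 in knockdown and 8.86 to 9.95 in control arrays, and 0 of them passed in the knockdown comparison by limma (6 at an unadjusted p under 0.05). With the replicate number as a block 1 passed, NOTCH2, a receptor gene (-1.83, limma adjusted p = 0.030 against 0.052 without the block). These markers also differed between the control clones. Clone H minus clone M had a median of -1.08, with 14 of 15 negative and 2 called lower by limma (1.05% of all probe sets were called there). For ACTB, the 3′ probe set minus the 5′ one, which tracks RNA degradation, ran from 0.24 to 0.46 in knockdown and 0.10 to 0.30 in control arrays, and from 0.10 to 0.46 in replicate 1 and 0.11 to 0.25 in replicate 2.

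The promoters of 4 genes with wide differences between replicate numbers are shown for the motifs they share and lack. Below are the 250 bases before the RefSeq start (GRCh38.p14) of H2AC6 (chr6:26123922-26124171, plus strand) and H2BC21 (chr1:149886683-149886932, minus strand), both higher in replicate 2. H2BC14 (chr6:27814772-27815021, plus strand) and H1-5 (chr6:27867589-27867838, minus strand) were lower in replicate 2. Capitals mark matches on either strand to CCAAT (the CCAAT box), TATAAA (the TATA box) and ATTTGCAT (the octamer recognised by OCT1, known from H2B promoters), with overlaps allowed.
H2AC6: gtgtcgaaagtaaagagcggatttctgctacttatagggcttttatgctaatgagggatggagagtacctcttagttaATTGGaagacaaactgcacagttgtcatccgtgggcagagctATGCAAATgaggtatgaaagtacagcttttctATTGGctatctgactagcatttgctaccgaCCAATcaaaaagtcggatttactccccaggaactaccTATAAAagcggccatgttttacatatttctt
H2BC21: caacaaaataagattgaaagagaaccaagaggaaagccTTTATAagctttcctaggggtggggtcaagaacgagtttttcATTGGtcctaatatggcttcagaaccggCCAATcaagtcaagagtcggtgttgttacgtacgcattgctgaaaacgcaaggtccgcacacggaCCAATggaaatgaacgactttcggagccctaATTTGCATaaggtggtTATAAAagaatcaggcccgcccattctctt
H2BC14: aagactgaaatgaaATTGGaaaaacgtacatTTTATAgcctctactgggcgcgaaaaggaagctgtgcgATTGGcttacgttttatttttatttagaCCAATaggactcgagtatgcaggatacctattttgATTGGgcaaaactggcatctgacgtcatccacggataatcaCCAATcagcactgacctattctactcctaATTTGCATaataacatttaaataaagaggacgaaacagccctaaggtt
H1-5: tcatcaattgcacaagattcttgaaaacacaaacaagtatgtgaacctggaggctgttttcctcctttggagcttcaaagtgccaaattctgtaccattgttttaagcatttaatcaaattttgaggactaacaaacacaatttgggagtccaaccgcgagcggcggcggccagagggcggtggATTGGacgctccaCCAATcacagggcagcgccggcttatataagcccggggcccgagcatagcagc

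H2AC6 and H2BC21 each held 3 CCAAT matches and 1 octamer, H2BC14 held 5 and 1, and H1-5 held 2 and 0. TATAAA matched 1 time in H2AC6, 2 times in H2BC21, 1 time in H2BC14 and 0 times in H1-5. The H2BC14 match and 1 of the 2 in H2BC21 read on the opposite strand, far from the start. H1-5 has the letters TATATAA, which are no match, shortly before its start. Matches were counted on either strand at any position, so these counts do not show which genes have or lack a TATA box. RefSeq gave a promoter for 45 of the 48 genes. CCAAT was present in 37 of the 45 (82.2%) against 33.0% of 27305 promoters of all genes, and TATAAA in 28 (62.2%) against 11.1%. The octamer was present in 14 (31.1%) against 1.66%. All 14 were core cluster genes, 6 of 8 for H2A and 8 of 11 for H2B, with 0 of 13 for H3 and H4. Of the genes higher in replicate 2, 3 of 6 with a promoter held the octamer, and of those lower in replicate 2, 3 of 8. A match is a description of these letters and not a sign of binding.

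The first comparison set replicate 2 against replicate 1 within each clone. Within the histone family the probe sets split. A small set of cluster genes, led by H2AC6 and H2BC21, stood higher in replicate 2 of every clone. Such a rise in every clone was seen in 9 of the 57 probe sets (15.8%), against 20.2% of all probe sets. Other cluster genes and 3 of the 7 linker H1 genes stood lower. Among the probe sets called higher, those of H2AC6, H2BC21, H2BC12L and H2BC5 carry the shared-sequence suffix, so these gene names are uncertain. Among those called lower, the probe sets of H1-10, H2AZ2 and MACROH2A1 carry the suffix. Of the 34 histone probe sets without it, 3 were called higher and 5 lower. Over all probe sets, with or without the suffix, 4.60% were called higher and 8.76% lower. H2AC6 (also HIST1H2AC), an H2A gene known for polyadenylated messages, stood in replicate 1 at 9.84 in B, 9.58 in G, 8.27 in H and 7.44 in M, and in replicate 2 at 10.90, 10.78, 10.47 and 9.84. Each clone's replicate 2 array was above its replicate 1 array, by 1.06 in B and 1.20 in G and by more than 2 in H and M. The mean difference was 1.72 (SE 0.22), or 3.28-fold.

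H2BC21 (also HIST2H2BE), an H2B gene of the smaller cluster on chromosome 1, stood in replicate 1 at 8.83 in B, 8.66 in G, 7.54 in H and 7.16 in M. In replicate 2 it stood at 9.88, 9.78, 8.85 and 8.79. The 4 within-clone differences lay close together, from 1.05 to 1.63, with a mean of 1.28 (SE 0.10), or 2.43-fold. H2BC12, another H2B gene, stood in replicate 1 at 11.86 in B and 11.57 in G but at 9.98 in H and 9.69 in M. In replicate 2 it stood at 12.20, 11.93, 11.69 and 11.33. The mean difference was 1.01 (SE 0.24), and clones H and M moved by 1.71 and 1.64 where B and G moved by 0.35 and 0.37.

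The other probe sets called higher in replicate 2 were of core cluster genes and of H2BC12L. H2BC5 had differences of 0.76 (SE 0.18) and 0.37 (SE 0.10) on its probe sets, H2BC12L 0.66 (SE 0.12), H2AC25 0.60 (SE 0.08) and H3C6 0.50 (SE 0.07). H3C6 was the even one of the group, with differences of 0.42, 0.53, 0.50 and 0.55 in clones B, G, H and M. Its mean signal, 6.70, lay below the median of all probe sets. H2BC6, next in order, was higher in all 4 clones by a mean of 0.27 but did not pass the limma threshold.

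**Figure D1:**
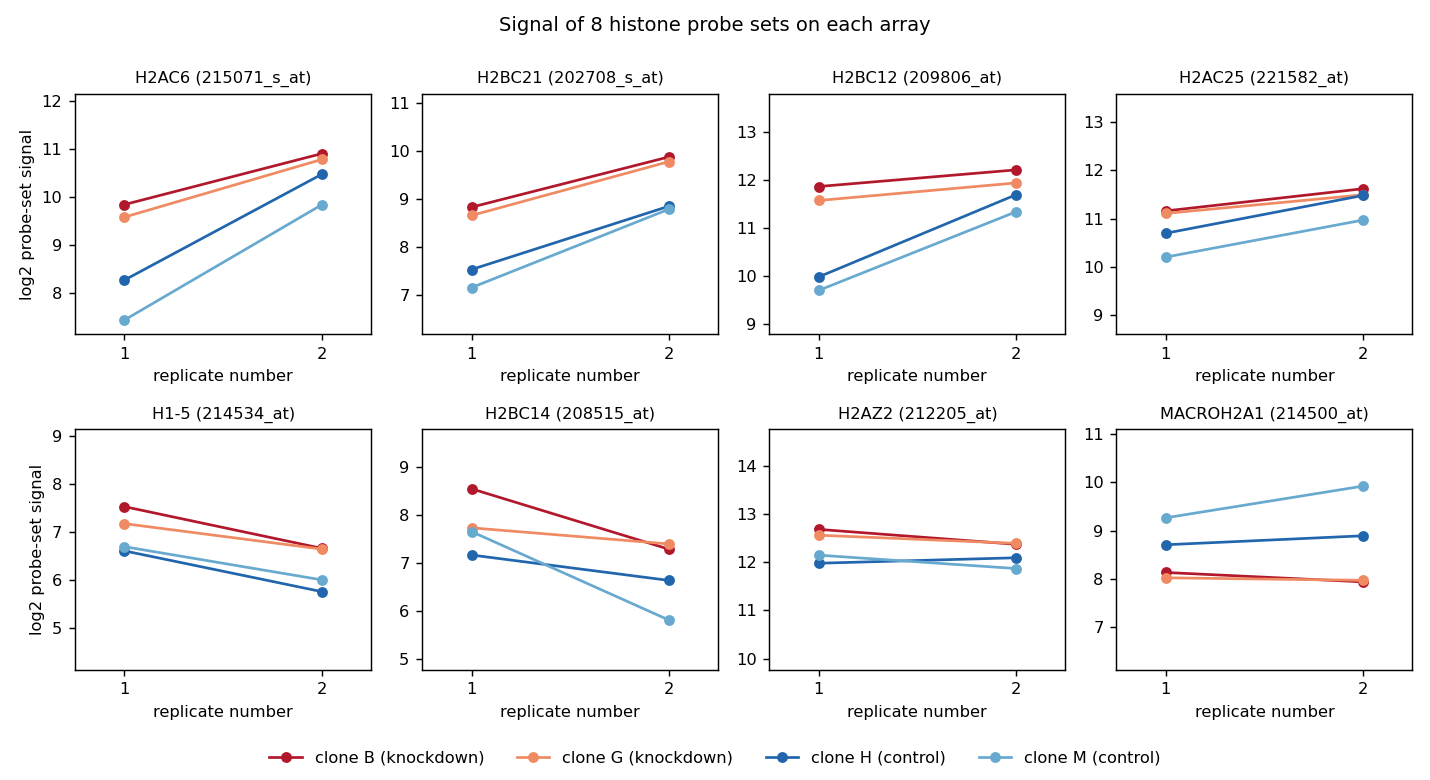
Log2 signal of 8 histone probe sets (vertical axis, each panel spanning the same range) against replicate number, with 1 line per clone: reds for the DJ-1 knockdown clones B and G, blues for the control clones H and M. H2AC6, H2BC21, H2BC12 and H2AC25 are higher in replicate 2 of every clone, and H1-5 and H2BC14 are lower. The H2AZ2 probe set shown lies higher in both knockdown clones, and the MACROH2A1 probe set shown lies lower in them. The MACROH2A1 probe sets not shown differed by 0.12 and 0.15 between conditions, and a further H2AZ2 probe set had overlapping groups.

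Among the probe sets lower in replicate 2, H2BC14, an H2B cluster gene, stood in replicate 1 at 8.54 in B, 7.73 in G, 7.17 in H and 7.65 in M, and in replicate 2 at 7.29, 7.40, 6.64 and 5.81. It had the lowest mean difference of the 57, -0.99 (SE 0.22), and ran from -0.34 in G to -1.84 in M. H1-5, a linker histone gene of the same cluster, stood in replicate 1 at 7.53 in B, 7.18 in G, 6.61 in H and 6.70 in M, and in replicate 2 at 6.66, 6.65, 5.76 and 6.01. Its differences were alike in the 4 clones, -0.53 to -0.87, with a mean of -0.73 (SE 0.09). The H2A cluster genes H2AC16 (-0.72, SE 0.11) and H2AC17 (-0.61, SE 0.17) were lower too, although H2AC17 was 0.11 higher in clone H. The mean signals of H2BC14, H1-5, H2AC16 and H2AC17 all lay below the median of all probe sets, 8.06.

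H1-10, a linker variant encoded outside the clusters, was lower by a mean of 0.60 on the log2 scale, with differences of -0.48, -0.52, -0.59 and -0.82 in B, G, H and M. H1-4 (-0.51, SE 0.14), one H2AZ2 probe set (-0.37, SE 0.06) and one MACROH2A1 probe set (-0.25, SE 0.05) completed the 8 probe sets called lower. The other H2AZ2 probe sets differed by -0.21 and -0.16, and the other MACROH2A1 probe sets by -0.11 and 0.15. H2AZ1, the main H2A.Z gene and known to follow proliferation, differed by -0.30 and -0.22. The brightest H2AX probe set differed by -0.44, and the other H2AX probe sets by -0.38, -0.09 and 0.06. H3C2 differed by -0.54, and MACROH2A2 and H3-3A by -0.02 and 0.04. None of these passed.

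In counts, 16 of the 57 histone probe sets were called between replicate numbers (limma, adjusted p under 0.05), 8 higher and 8 lower. Over all probe sets 13.4% were called, 4.60% higher and 8.76% lower. All 8 called higher were in the core cluster class, which counts H2BC12L, with 3 of that class called lower, and the linker H1 and replacement variants had 0 higher and 3 and 2 lower. Replicate 2 lay above replicate 1 in all 4 clones for 9 probe sets (15.8%, against 20.2% of all probe sets). It lay below in all 4 for 11 (19.3%, against 18.3% of all). The family median was -0.06, against 0.03 for all probe sets, with medians of 0.02 for the core cluster, -0.41 for linker H1 and -0.19 for replacement variants. Without clone B 8 were called higher and 3 lower, where 3.45% of all probe sets were called, and without clone H 5 and 13, where 8.66% were.

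Split by signal averaged over the 8 arrays, the 13 core cluster probe sets at or above the array median had a replicate median of 0.37, and the 23 below it a median of -0.07. All probe sets at or above the median signal had a median of -0.03. This split was set in part by the replicate difference itself. H2BC21 had a replicate 1 mean just under the limit (8.047 against 8.055) and entered through replicate 2, and H2AC17, with a replicate 1 mean of 8.156, fell below it through replicate 2. By type, 5 of 13 H2B, 2 of 8 H2A, 1 of 7 H3 and 0 of 8 H4 cluster probe sets were called higher (4.60% of all probe sets). Called lower were 1 for H2B, 2 for H2A, 0 for H3 and 0 for H4 (8.76% of all). The length of the RefSeq gene model, looked at after the values were seen, went with the split. Of the 35 core cluster genes, 4 have a model over 1000 bases (H2BC5 with 13229, H2BC12 with 8566, H3C6 with 3296 and H2BC21 with 2224), and all 4 were called higher. The other 31 models have 386 to 542 bases, and 3 of these genes were called higher: H2AC6 (519), H2AC25 (510) and H2BC12L (467).

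**Figure D2:**
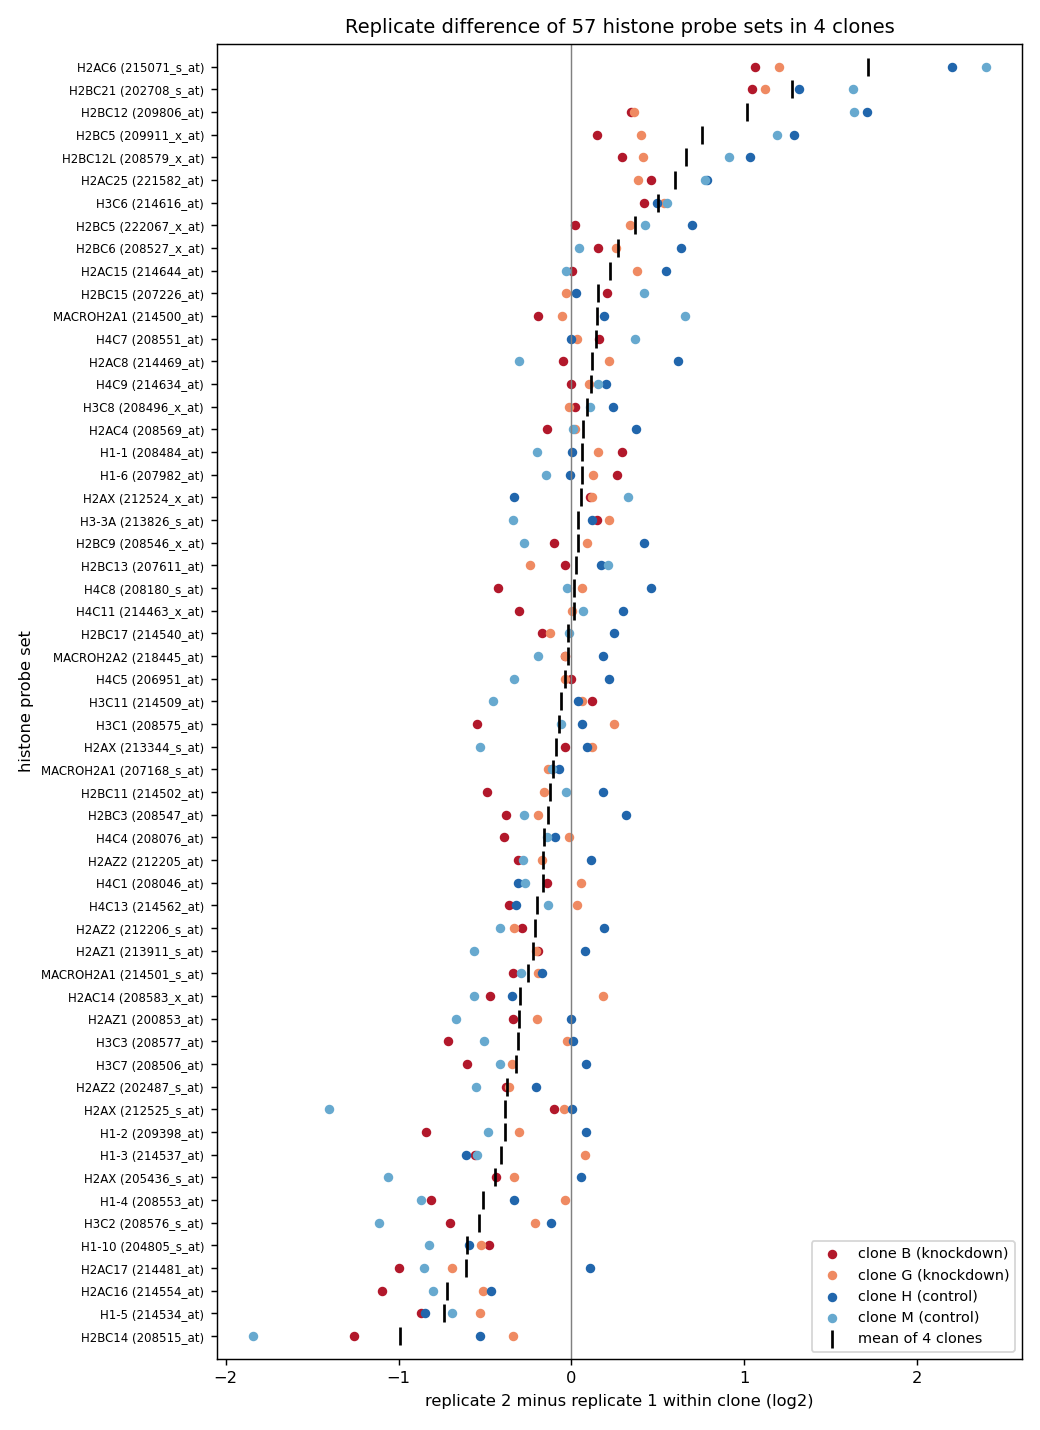
Replicate 2 minus replicate 1 within each clone (log2, horizontal axis) for the 57 histone probe sets, in order of the mean over the 4 clones (black bar), with 1 point per clone. The 8 highest means, 0.37 to 1.72, belong to core cluster probe sets with all 4 clones above 0, and H2BC14 has the lowest mean, -0.99.

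Cell cycle genes moved with the replicate numbers. Of 23 measured S-phase genes 22 were called lower in replicate 2, with a median of -0.59, among them RRM1 (-0.90), a ribonucleotide reductase subunit gene, and MCM6 (-0.65), of the replicative helicase. Of 20 mitosis genes 19 were called lower, with differences of all 20 from -1.26 to -0.70, among them TOP2A (-1.17), a DNA topoisomerase gene, and BUB1 (-1.26), a spindle checkpoint kinase gene. Growth arrest genes were mixed: of 16 measured 1 was higher, CDKN1C (+0.67), a cyclin-dependent kinase inhibitor gene, and 4 were lower, among them TXNIP (-3.01) and KLF6 (-0.66). Of the 15 mesenchymal markers 0 were called higher and 5 lower, with a median of -0.31, among them SNAI2 (-1.94) and NOTCH2 (-0.93). The part of these genes in the histone differences was not tested.

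Genes that make and handle histone messages were mostly lower or not called. Of 20 measured genes of histone mRNA transcription and 3′ processing, 0 were called higher and 4 lower in replicate 2: CDK2 (-0.75) and CCNE2 (-0.60), which activate histone transcription at S-phase entry, E2F1 (-0.39) and COIL (-0.28), of the Cajal body. SLBP, the stem-loop binding protein gene, differed by -0.20 and was lower in all 4 clones without passing. Of 28 histone chaperones 8 were called lower and 1 higher, the lower ones including NASP (-0.51), which binds free H3 and H4, CHAF1A (-0.55) and ASF1B (-0.56), of replication-coupled assembly, and ANP32E (-0.59), which removes H2A.Z. Of 17 genes of general cleavage and polyadenylation, PABPN1 (+0.57), the nuclear poly(A)-binding protein gene, was called higher and 0 lower.

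**Figure D3:**
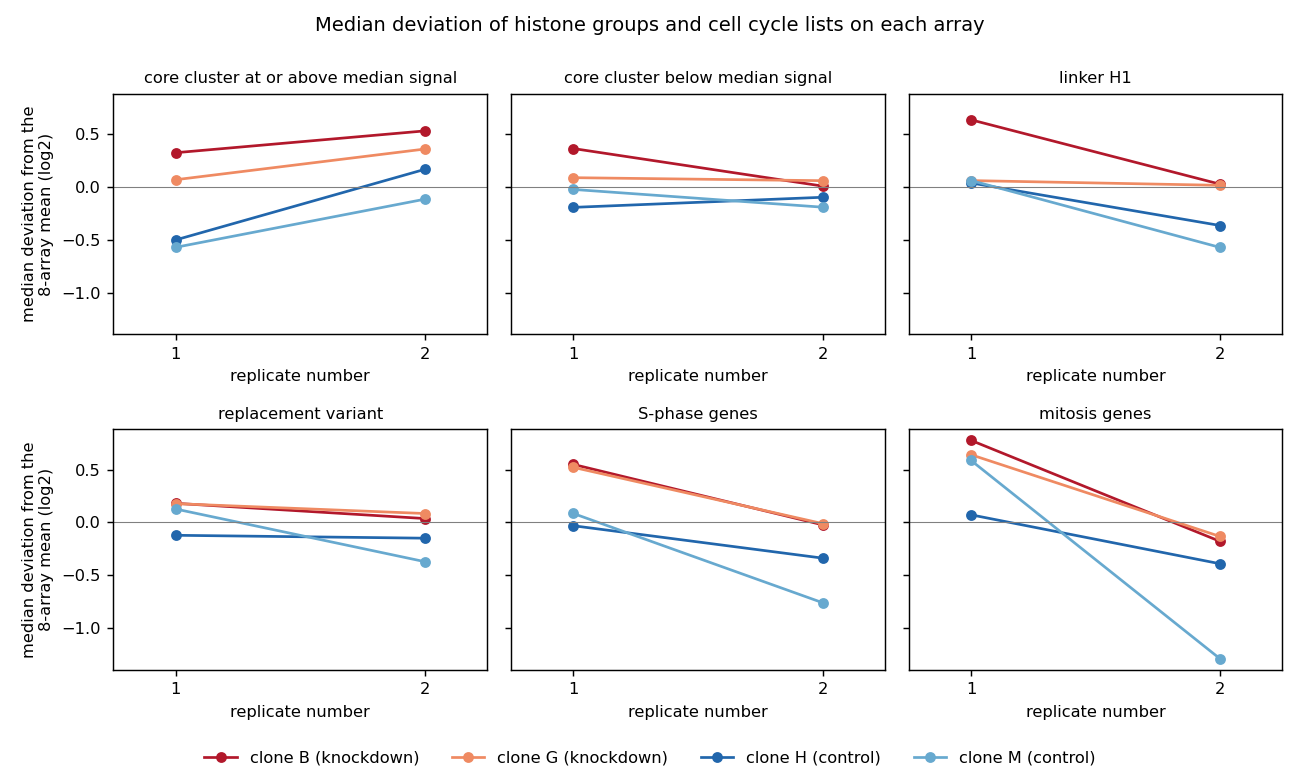
Median over each group of a probe set's deviation from its own mean over the 8 arrays (log2, vertical axis) against replicate number, with 1 line per clone. Core cluster probe sets at or above the median signal are higher in replicate 2 of all 4 clones (-0.57 against -0.12 in M), where H2BC21 entered and H2AC17 dropped out through their replicate 2 arrays, while S-phase and mitosis genes are lower in all 4 (in M 0.08 against -0.76 and 0.59 against -1.29).

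The second comparison set the DJ-1 knockdown against the scramble control. Its adjusted p-values come from the fit over all probe sets and, since the histone group was selected with these differences known, describe its members and are no independent evidence. Differences leaned towards higher signals in the knockdown: 53 of 57 were positive, against 50.7% of all probe sets, with a median of 0.32 against 0.00 for all. The called probe sets stood for 6 genes. The cluster genes H2AC8, H2BC6, H2BC9 and H4C5 rose, as did H2AZ2, which encodes a form of H2A.Z, on both of its called probe sets, and 1 probe set of MACROH2A1, a macroH2A gene, fell. H4C5, an H4 gene, stood at 8.30, 8.30, 8.32 and 8.29 in the knockdown arrays B1, B2, G1 and G2 and at 7.70, 7.92, 7.76 and 7.43 in the control arrays H1, H2, M1 and M2. The knockdown arrays were almost level and all above the control arrays, with a difference of 0.60 (SE 0.10, limma adjusted p = 0.021).

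H2AZ2 stood at 12.69, 12.38, 12.57 and 12.40 in the knockdown arrays, in the same order, and at 11.98, 12.10, 12.15 and 11.87 in the control arrays. The groups did not overlap, and the difference was 0.48 (SE 0.08, limma adjusted p = 0.022), a 1.40-fold rise. Its next probe set rose by 0.61 (SE 0.11, limma adjusted p = 0.024), but the third, which was called lower in replicate 2, differed by 0.21 with overlapping groups (adjusted p = 0.44). H2AC8 had the largest difference among those that rose, 0.89 (SE 0.17), from 6.47 ± 0.32 to 7.36 ± 0.26 (SD, n = 4 each, limma adjusted p = 0.031). The mean signals of H2AC8 (6.92) and H4C5 (8.00) lay below the median of all probe sets, 8.06. H2BC6 rose by 0.70 (SE 0.14) and H2BC9 by 0.66 (SE 0.12), with limma adjusted p = 0.031 and 0.023. Both H2BC6 and H2BC9 are shared-sequence probe sets.

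The 1 fall was that of MACROH2A1 on its probe set without the shared-sequence suffix, at 8.13, 7.93, 8.02 and 7.97 in the knockdown arrays and at 8.70, 8.89, 9.27 and 9.93 in the control arrays. The knockdown arrays lay within a narrow band below every control array, and the control clones H and M stood apart from each other. The difference was -1.19 (SE 0.22, limma adjusted p = 0.028), a 2.27-fold fall. The other MACROH2A1 probe sets, both with that suffix, differed by 0.12 and 0.15 and did not pass (adjusted p = 0.25 and 0.435), so the 3 probe sets of this gene disagreed. MACROH2A2 differed by 0.16 (adjusted p = 0.23). H2AX differed by 0.05 to 0.57 on its 4 probe sets, H2AZ1 by 0.32 and 0.22 and H3-3A by 0.21, and none of them passed.

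The differences above 1 were those of the genes that led the replicate comparison, and the replicate spread was wide in them. H2AC6 averaged 10.28 ± 0.66 in knockdown and 9.01 ± 1.40 in control arrays (SD, n = 4 each), a difference of 1.27 (SE 0.58, limma adjusted p = 0.26) with overlapping groups. H2BC12 differed by 1.22 (adjusted p = 0.13), H2BC21 by 1.20 (adjusted p = 0.15) and H2BC12L by 1.03 (adjusted p = 0.068). H2BC14 followed with 0.92 (adjusted p = 0.21). With the replicate number as a block, H2BC21 passed with limma adjusted p = 0.0040 and H2BC12L with 0.022, as did H1-5 (+0.73, adjusted p = 0.013 against 0.14 without the block). H2AC6 and H2BC12 did not pass there (adjusted p = 0.064 each), and H2AC8 lost its call (0.051). Within replicate 1 the knockdown differences of H2AC6, H2BC12 and H2BC21 were 1.86, 1.88 and 1.40, and within replicate 2 they were 0.69, 0.56 and 1.01.

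In counts, 7 of the 57 histone probe sets passed, 6 higher and 1 lower, where 2.96% of all probe sets passed, 1.53% higher and 1.43% lower. By class these 7 were 4 of 36 core cluster probe sets, 0 of 7 linker H1 and 3 of 14 replacement variants. At an unadjusted p under 0.05 there were 29 of the 57, where 19.9% of all probe sets passed. With the replicate block 9 passed, 8 higher and 1 lower (3.35% of all, 1.74% higher and 1.61% lower). All knockdown arrays lay above all control arrays for 12 probe sets (6.68% of all), among them H1-2 (+0.73), H3C3 (+0.58) and H3C11 (+0.57), which did not pass, and below them for 1 (5.03% of all). The medians were 0.49 for the core cluster, 0.33 for linker H1 and 0.21 for replacement variants. At or above the median signal the core cluster median was 0.66 over 13 probe sets, against 0.05 for all probe sets of such signal. The 23 core cluster probe sets below it had a median of 0.27. The split was set in part by the knockdown difference itself. H4C5 (8.30 in knockdown, 7.70 in control), H2AC17 (8.21 and 7.49) and H3C11 (8.14 and 7.56) fell below the limit of 8.06 through the control arrays. The lowest differences beside MACROH2A1 were those of H2BC15 (-0.19), H2BC13 (-0.13), H3C6 (-0.04) and H1-1 (+0.01), none of which passed.

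The number of calls moved with the arrays fitted, among histone probe sets and among all. In limma without array B1 or B2, without clone B or clone G, or with duplicates averaged, 0 of the 57 passed, with 22, 22, 13, 22 and 33 at an unadjusted p under 0.05. Of all probe sets 1.01%, 0.311%, 0.0585%, 0.0990% and 0.00450% passed in these settings. Without G1 or G2 2 histone probe sets passed (0.954% and 0.932% of all), without H2 23 (16.9% of all), without clone M 21 (9.53% of all) and without clone H 33 (39.1% of all).

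**Figure D4:**
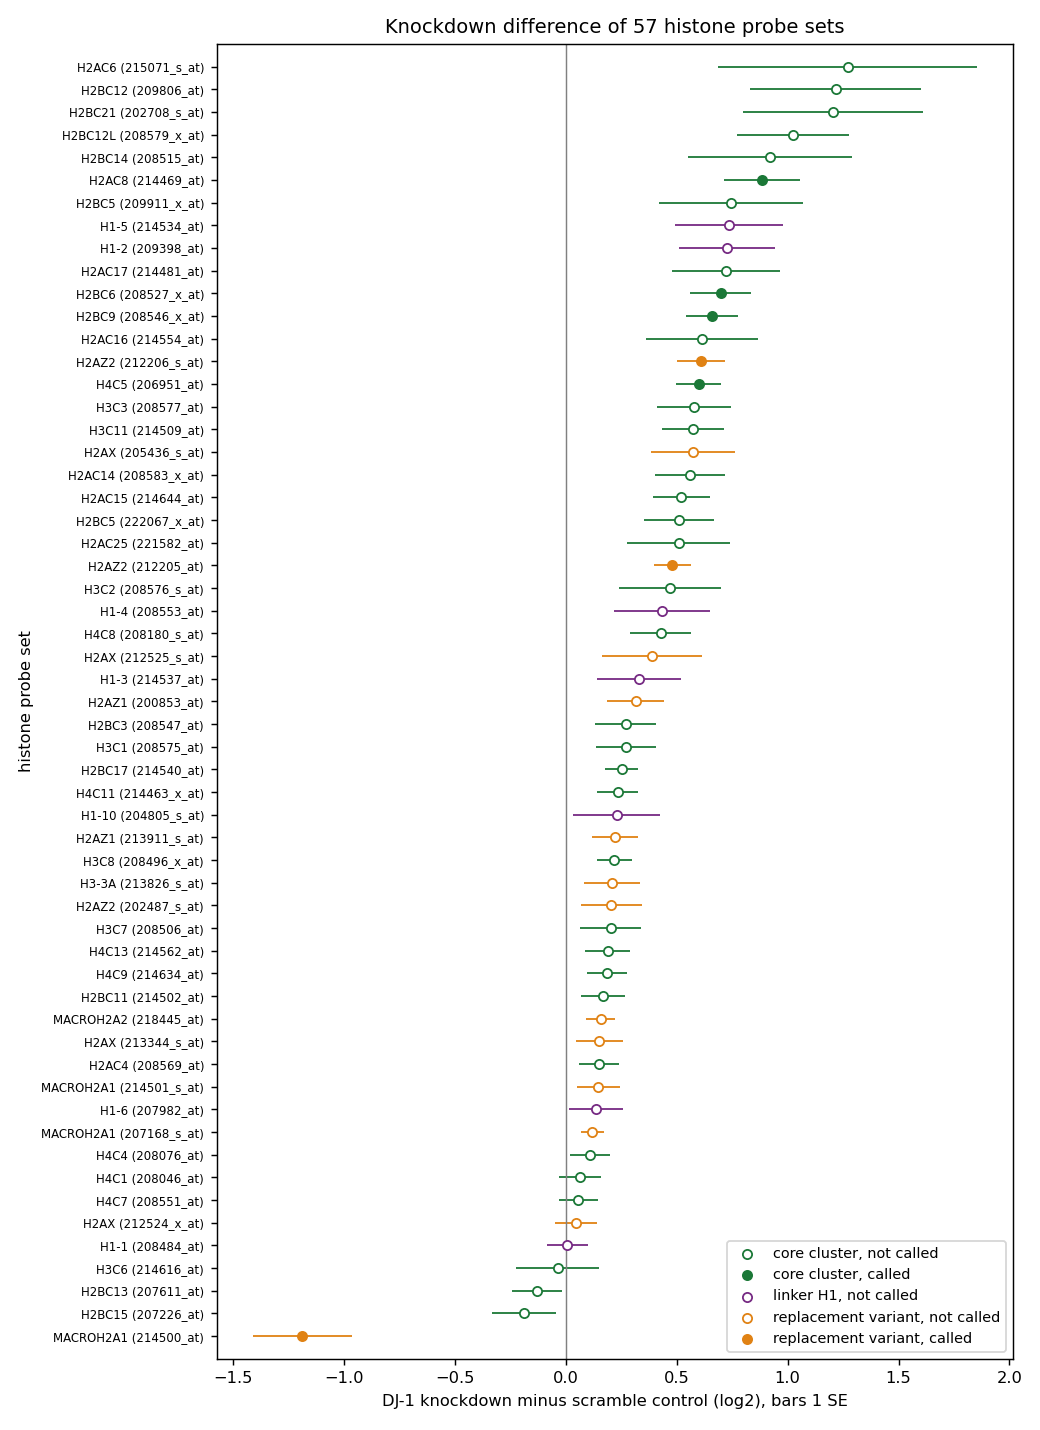
Knockdown minus control difference (log2, horizontal axis, bars 1 SE of the limma fit) for the 57 histone probe sets in order, coloured by class, with filled points for those called. The points lie mostly right of 0, the called rises run from 0.48 to 0.89 with short bars, H2AC6, H2BC12 and H2BC21 lie farther right with long bars, and the called MACROH2A1 probe set lies alone at -1.19.

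Beside these values, 23 of 23 S-phase genes had positive knockdown differences, with a median of 0.50 and 1 that passed, MCM4 (+0.66, limma adjusted p = 0.042), and 10 passed with the replicate block. All 20 mitosis genes were positive with a median of 0.52, and 0 passed by limma (1 at an unadjusted p under 0.05). Of the 20 genes of histone mRNA transcription and processing 17 were positive, with a median of 0.14, and 0 passed (9 at an unadjusted limma p under 0.05). SLBP differed by 0.34 (adjusted p = 0.071) and passed with the replicate block (0.038), as did CCNE2 (+0.59, 0.037). Of 28 chaperones NAP1L3, a neuronal nucleosome assembly protein gene, rose by 1.54 (SE 0.24, limma adjusted p = 0.015), and 3 rose with the block. Among the cleavage and polyadenylation genes PCF11, of transcript termination, rose by 0.52 (limma adjusted p = 0.021). Of the growth arrest genes BTG1 rose (+0.63) and CDKN1A fell (-0.69), both with limma adjusted p = 0.038, and CDKN1A did not pass with the block (0.064). TXNIP, which inhibits thioredoxin, differed by 1.48 (limma adjusted p = 0.41) and passed with the block (0.016). The part of these genes, of the mesenchymal markers and of the ACTB 3′ minus 5′ difference in the histone differences was not tested.

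Clones of one condition were compared next, a contrast the choice of members did not name. This fit had no replicate term, so the replicate difference widened its SE (0.68 for H2BC21 and 0.63 for H2BC12). The absence of calls therefore does not show that clones of one condition were alike. Clone G minus clone B gave 0 calls by limma among the 57 (0.00450% of all probe sets), with differences from -0.42 to 0.30 and 0 at an unadjusted p under 0.05 (0.936% of all). The differences still leaned one way between these 2 knockdown clones. Of the 57, 44 were negative, with a median of -0.10, where 10731 of all 22215 were negative, with a median of 0.00. Clone H minus clone M also gave 0 calls (1.05% of all), with 4 at an unadjusted p under 0.05 (13.2% of all). Here 36 of the 57 were positive, with a median of 0.05, where 11395 of all 22215 were positive, with a median of 0.01. The widest difference there was that of the MACROH2A1 probe set that fell in the knockdown, at -0.80 (SE 0.21, limma adjusted p = 0.16), followed by H2AC6 at 0.73 (SE 0.94, adjusted p = 0.80).

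The replicate difference was also compared between conditions, as an interaction. H2BC12 was higher in replicate 2 by a mean of 1.67 in the control clones and 0.36 in the knockdown clones, a difference of -1.32 (SE 0.09) with limma adjusted p = 0.099. H2AC6 had means of 2.30 and 1.13 (adjusted p = 0.49), and H2BC5 on one probe set 1.24 and 0.28 (0.49). By limma 0 of the 57 passed, as did 0 of all 22215 probe sets (0% called), with 8 of the 57 and 8.41% of all at an unadjusted p under 0.05. For H2BC12 and H2AC6 the replicate 1 arrays of the control clones were the lowest of the 8.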

How the data were processed

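The deposited table held log2 probe-set signals, made by the authors with GCOS and RMA per the submitters' processing notes (no version is given in the sources). The log2 scale was read from the values. RMA brings all arrays to one distribution, which hides any change common to most genes. Without detection calls, low signals could not be told from background. Of 22277 probe sets 62 manufacturer controls were left out.

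Fits were made over all 22215 probe sets in limma 3.58.1 (lmFit, eBayes with trend, two-sided, Benjamini-Hochberg, threshold 0.05; R 4.3.3, statmod 1.5.0) and tested on simulated data. Knockdown against control had clone as a random block (consensus correlation -0.068). With a negative value the block does not allow for likeness between duplicates. With it 2.96% of all probe sets passed, and without it 2.20%. With the replicate number also as a block the correlation was 0.235. Replicate 2 against replicate 1 had clone as a fixed effect, and the interaction added replicate by condition. Clones were compared with 1 mean per clone. The 8 arrays limit the precision of every value. Same-numbered arrays deviated together from their clone means in all 6 pairs of clones (r = 0.42 to 0.78 across probe sets), so the titles' numbers were taken to pair the arrays, and the replicate block is given where it changed the call of a histone probe set or of a list, by count for S-phase genes and chaperones.

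Members and lists were chosen with earlier results of these data known. In the 9 lists a gene stood by its brightest probe set. Named were PARK7, H2AC6, H2BC21, the called histone probe sets, the 8 extremes each way by replicate and 5 by knockdown, all replacement variants, and up to 4 genes of each list by smallest p per comparison. Gene lengths, within-replicate values and further members of interest were chosen after values were seen. Promoters, symbols and gene lengths are RefSeq's (GRCh38.p14).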

Additional observations from a re-analysis of the deposited data

Results flagged for a closer look

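Of 114 groups of 4 arrays over the 57 histone probe sets, 7 held an array far from the others, measured as its gap to the nearest array over the group's range, where chance flags about 1 group in 20. In knockdown arrays these were H2BC5 on the probe set with its smaller replicate difference (0.933), H3C3 (0.912), H1-4 (0.909) and H2AC15 (0.848). In control arrays they were H1-1 (0.926), H3C11 (0.891) and H4C7 (0.881).

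For 3 probe sets replicate 2 lay on opposite sides of replicate 1 in the knockdown and the control clones, and the interaction did not pass in limma. The knockdown minus control value of that replicate difference was -0.55 for the MACROH2A1 probe set that fell in the knockdown (adjusted p = 0.57), -0.33 for H2BC13 (0.61) and 0.27 for H1-6 (0.63).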

How the results depend on the processing

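The count of histone probe sets called by limma in knockdown against control was 7 (2.96% of all probe sets). It was 9 with the replicate block (3.35% of all), 7 without the clone block (2.20%) and 7 after quantile normalization (2.93%). It was 0 with duplicates averaged, 0 without clone B, 0 without clone G, 33 without clone H and 21 without clone M, where 0.00450%, 0.0585%, 0.0990%, 39.1% and 9.53% of all probe sets passed. Leaving out 1 array gave 0 to 23, where 0.311% to 16.9% of all probe sets passed. It was 4 of 34 without shared-sequence probe sets, in the fit where 2.96% of all passed. Added after the data were seen, it was 1 within replicate 1 and 0 within replicate 2 (0.0810% and 0.00450% of all). At an unadjusted p under 0.05 there were 27 and 25. The median knockdown difference, 0.32, ran from 0.24 to 0.38 without 1 array each and was 0.50 over the 26 probe sets at or above the median signal. The replicate count, 16, was 1 without a clone term (0.824% of all). It was 10 of 26 at or above the median signal, where 23.3% of all such probe sets were called. Without shared-sequence probe sets it was 8 of 34, 3 higher and 5 lower, in the fit where 13.4% of all were called. Fewer probe sets enter the last settings, and the cause of the other changes was not tested. Of the 7 knockdown calls 6 were kept with the replicate block, 7 without clone H or clone M, and 0 within either replicate number. Of 17 named probe sets none that passed in the fit reported changed sign. H2BC13 and H2BC15, which did not pass there, passed without clone H (-0.30 and -0.39, limma adjusted p = 0.010 and 0.023) and were 0.04 and 0.02 without clone M. In knockdown against control, H3C6 and H1-1 passed in no setting and also changed sign in some. Without detection calls, signals near background limit what low probe sets can show.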
